A study of Mus musculus with 12 samples.

Results

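Testis RNA of Wobbler mice was hybridised directly against testis RNA of wildtype mice on 4 of the 12 two-colour cDNA arrays of this series, and the 4 arrays titled for that pair were taken. The other 8 arrays, 4 of mice with the modifier against wildtype and 4 of mice with the modifier against Wobbler, are used where the difference is tested and to estimate the spread. Wildtype mice, Wobbler mice (wr/wr in the design text) and Wobbler mice carrying a modifier (wr/mod) were all males on a Castaneus background. Every channel held a pool of 3 males, so the spread between single mice was not measured, and no age is given in the sources used here. Whether the 4 arrays of a pair came from separate pools is not stated, so the p-values rest on differences among arrays that may be only technical. Replicates 1 and 2 carried Wobbler RNA in Cy5 and replicates 3 and 4 carried it in Cy3. All values below are log2 ratios of Wobbler over wildtype, so that 0 is no difference. That a positive sign means higher in Wobbler is likely from the titles and from how such ratios are usually formed, but is not stated.

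The Wobbler allele is a missense change in Vps54 and acts recessively; the Vps54 protein belongs to the GARP complex, which tethers vesicles that return from endosomes to the trans-Golgi network. Homozygous mice lose motor neurons, and the males are infertile, with round-headed sperm whose acrosome fails to form. The acrosome is the enzyme-filled cap of the sperm head, and it is built from Golgi vesicles in round spermatids. Later the spermatid replaces its histones with transition proteins and then protamines, and assembles the tail. A change in testis RNA can come from a change in these steps or in the mix of cells, and in such bulk RNA fewer cells of a type and less RNA per cell cannot be told apart. Vps54 had no probe with its name among those analysed here. The arrays give ratios and no levels, so the presence of testis markers could not be checked.

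Replicates 1 to 3 of Wobbler over wildtype were noisier than the other arrays of the series, and replicate 4 was not. A feature is a named gene or a probe without a single gene name. SDs over all features were 0.89, 1.54, 0.95 and 0.70 for replicates 1 to 4, against 0.59 to 0.83 on the other 8 arrays. Replicate 2 stood apart, with 13.2% of its ratios above 2, against 1.51%, 2.83% and 1.45% on the other arrays of the pair. Over the features tested these 4 arrays had Pearson correlations with each other of -0.04 to 0.13. Array medians over all features followed the dye: they were 0.11 and 0.04 with Wobbler in Cy5 and -0.21 and -0.10 with Wobbler in Cy3. The test therefore carried a dye term and gave each pair of genotypes its own variance.

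**Figure D1:**
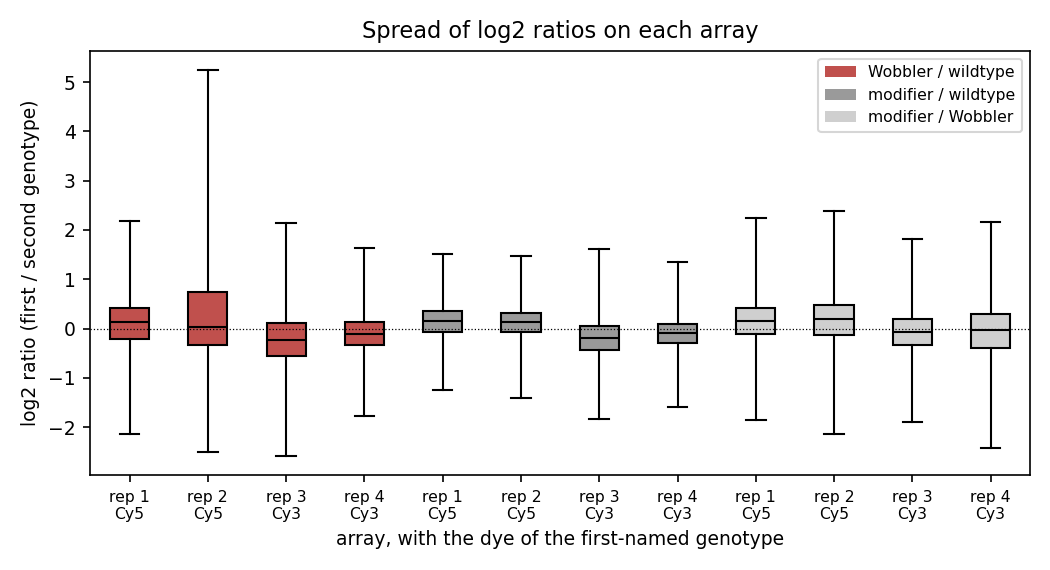
Log2 ratios of all tested features on each of the 12 arrays, with the dye of the first-named genotype under each box. Boxes span the quartiles with the median as a line, and whiskers reach the 1st and 99th percentiles. The boxes of Wobbler over wildtype (red) lie higher in Cy5 than in Cy3, and replicate 2 has the longest upper whisker. Over all features, tested or not, 13.2% of the ratios of replicate 2 lay above 2.

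Few features passed the threshold for a difference between Wobbler and wildtype testis, on arrays that correlated little with each other. Of 14729 features tested with limma, 16 passed an adjusted p of 0.05 (0.109%), with 4 higher in Wobbler (0.0272%) and 12 lower (0.0815%). Of these, 12 had a gene name: Frat2, Btk and Haus4 rose, and Znf41-ps, Klf16, Adgrl4, Trip6, Cep83, Kcnn4, Serpina1f, H1f6 and Rps18 fell. Their mean ratios ran from 1.99-fold to 5.46-fold in either direction, and each of the 16 features had 1 sign on every array that measured it. At an unadjusted p of 0.05, 543 features were higher (3.69%) and 589 lower (4.0%), 1132 in all. The median of all features was -0.01, with quartiles at -0.23 and 0.27. The calls rest on the other arrays for the estimate of the spread: with the 4 arrays alone limma called 0 features, with 836 at an unadjusted p under 0.05. In that fit the 12 named genes had unadjusted p of 0.000133 to 0.00637 and an adjusted p of 0.736. Leaving out 1 array changed the count of 16 calls to 2 without Wobbler over wildtype replicate 1, 4 without replicate 3 and 3 without replicate 4. It was 10 and 9 without modifier over wildtype replicates 1 and 4, and 10 without modifier over Wobbler replicate 3.

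**Figure D2:**
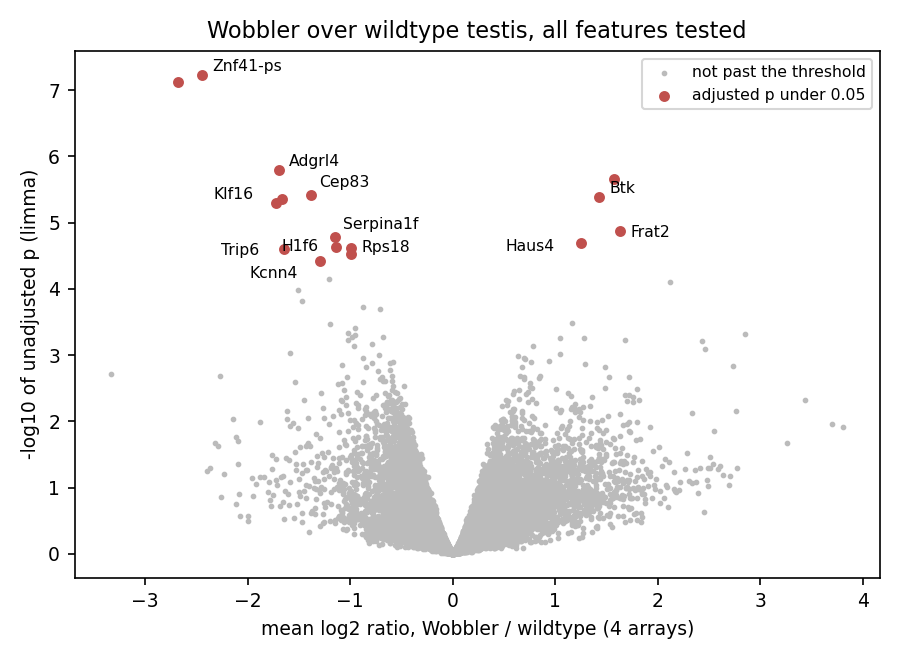
Mean log2 ratio of Wobbler over wildtype (horizontal) against -log10 of limma's unadjusted p (vertical) for 14729 features, 4 arrays. Red points passed an adjusted p of 0.05; the 12 with gene names are labelled, and 3 red points on the left and 1 on the right have no gene name.

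The promoters of 3 of these genes are shown as examples: H1f6 is the germ cell histone that fell, Rps18 the ribosomal protein that fell, and Btk a gene that rose. They are RefSeq sequences of build GRCm38.p6, from 250 bases before to 50 after the gene's start, on the gene's strand, 5′ to 3′. H1f6 lies at chr13:23695561-23695860 on the plus strand, Rps18 at chr17:33955616-33955915 on the minus strand and Btk at chrX:134583091-134583390 on the minus strand. Capitals mark matches, on either strand, to the TATA box (TATAAA), the CCAAT box (CCAAT), the GC box (GGGCGG) or a part of the cAMP response element (TGACG).
H1f6: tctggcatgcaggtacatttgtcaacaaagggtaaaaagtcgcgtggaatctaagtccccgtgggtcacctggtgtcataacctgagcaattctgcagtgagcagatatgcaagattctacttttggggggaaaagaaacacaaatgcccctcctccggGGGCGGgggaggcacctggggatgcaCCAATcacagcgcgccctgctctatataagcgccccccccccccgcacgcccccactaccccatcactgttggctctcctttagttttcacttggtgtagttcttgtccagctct
Rps18: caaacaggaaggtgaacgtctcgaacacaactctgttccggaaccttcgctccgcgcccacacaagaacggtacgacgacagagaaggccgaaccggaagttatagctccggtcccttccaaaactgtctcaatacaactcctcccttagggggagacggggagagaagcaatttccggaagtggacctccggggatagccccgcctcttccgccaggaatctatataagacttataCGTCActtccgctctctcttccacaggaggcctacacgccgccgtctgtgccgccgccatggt
Btk: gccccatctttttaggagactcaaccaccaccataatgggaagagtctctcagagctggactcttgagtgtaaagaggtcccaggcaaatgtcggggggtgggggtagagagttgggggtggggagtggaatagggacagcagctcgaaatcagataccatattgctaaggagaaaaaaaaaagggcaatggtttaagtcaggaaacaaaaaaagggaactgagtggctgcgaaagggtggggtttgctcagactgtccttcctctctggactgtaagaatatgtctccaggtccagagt
The H1f6 promoter holds a GC box and a CCAAT box, that of Rps18 holds 1 TGACG match, and that of Btk holds none of the 4 motifs in this window. Promoters were found for 10 of the 12 genes. The CCAAT box, the GC box and the cAMP response element match each occurred in 5 of the 10, against 37.4%, 35.7% and 20.8% of 32851 promoters, and the TATA box in 1 of the 10, against 13.6%. Only exact matches were counted, so near forms were not, such as the tatataag that the H1f6 and Rps18 sequences hold. With 10 promoters these shares are a description. The matches are letters, not shown sites of binding.

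Among the genes that rose, Frat2, whose protein binds the kinase GSK-3 and favours Wnt signalling, had log2 ratios of 2.25, 1.76, 0.82 and 1.70 on replicates 1 to 4. All 4 arrays lay above 0, with the lowest on replicate 3. The mean was 1.63 ± 0.21 (SE, n = 4), a 3.10-fold difference with an adjusted p of 0.0216. Btk, a tyrosine kinase best known for its role downstream of the B cell receptor, had ratios of 1.82, 1.496, 1.02 and 1.37, again lowest on replicate 3. Its mean was 1.43 ± 0.16 (SE, n = 4), adjusted p = 0.00913. Haus4, a subunit of the augmin complex that nucleates microtubules within the spindle, had ratios of 1.68, 1.17, 0.85 and 1.28. Its mean was 1.25 ± 0.17 (SE, n = 4), adjusted p = 0.0258.

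Because Btk is a gene of blood cells, the markers of immune cells were read beside it. Of 9 lymphocyte markers tested 0 passed the threshold, beside 0.109% of all features. Their median was 0.36 and they ranged from -0.13 to 1.36. Of 12 macrophage markers 0 passed, with a median of -0.05 and a range of -0.49 to 1.30. The lymphocyte marker with the smallest p was Cd8a, a T cell co-receptor, at 1.14, 2.33, -0.08 and 0.23. Cd79b, a B cell receptor subunit, was at -0.43, 4.35, -0.02 and 0.29, high on replicate 2 alone. The part of immune cells in the Btk ratio was not tested.

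The named gene with the largest fall was Znf41-ps, by its name a pseudogene of a zinc finger gene. Its log2 ratios were -2.44, -2.43, -2.32 and -2.60, nearly the same on all 4 arrays, with a mean of -2.45 ± 0.18 (SE, n = 4), 5.46-fold lower at an adjusted p of 0.000545. A probe for a pseudogene may also bind related transcripts, so the source of this signal is uncertain. Klf16, a zinc finger transcription factor of the Krüppel-like family, had ratios of -1.54, -2.55, -1.61 and -1.21. Its mean was -1.72 ± 0.20 (SE, n = 4), adjusted p = 0.00935, with replicate 2 the lowest.

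Adgrl4, an adhesion receptor of endothelial cells, had log2 ratios of -1.67, -1.77, -1.79 and -1.57, a range far narrower than its distance from 0. Its mean was -1.70 ± 0.17 (SE, n = 4), adjusted p = 0.00782. Other genes of vessels and peritubular cells did not move with it past the threshold: 0 of 19 passed, beside 0.109% of all features. Their median was 0.07 and their range -0.58 to 1.23. The 8 endothelial genes of that list had means on both sides of 0: Flt1 at -0.23, Pecam1 at -0.14, Emcn at -0.12, Eng at -0.03, Tie1 at -0.003, Vwf at 0.19, Cdh5 at 0.78 and Tek at 1.23. The probes of Cdh5, the cadherin of endothelial junctions, disagreed, with means of -0.05 and 1.604. The smallest p of the list was that of Mylk, a kinase of smooth muscle contraction, at -0.10, -1.69, -0.34 and -0.20. Trip6, a LIM domain protein of focal adhesions, fell, with ratios of -1.54, -1.63, -1.37 and -2.06. Its mean was -1.65 ± 0.23 (SE, n = 4), adjusted p = 0.0258.

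Cep83, a distal appendage protein of the centriole needed to start a cilium, had averaged ratios of -1.48, -1.40, -1.66 and -1.01. The mean was -1.39 ± 0.15 (SE, n = 4), adjusted p = 0.00913, but its probes disagreed: 1 had a mean of -2.66 and the other of -0.11. Kcnn4, a calcium-activated potassium channel, had averaged ratios of -1.20, -1.22, -1.74 and -1.03. The mean was -1.30 ± 0.19 (SE, n = 4), adjusted p = 0.0346, and its probes had means of -2.36 and -0.23. For each of the pair, then, the fall was seen by 1 of 2 probes, and the other 10 genes had a single probe.

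Serpina1f, of the serine protease inhibitor family, had log2 ratios of -1.08, -1.23, -1.19 and -1.11, with an SD of 0.07 (n = 4). Its mean was -1.15 ± 0.15 (SE, n = 4), adjusted p = 0.0246. H1f6, the testis-specific linker histone that spermatocytes and round spermatids carry, had ratios of -1.05, -1.10, -1.62 and -0.80. Its mean was -1.14 ± 0.16 (SE, n = 4), adjusted p = 0.0258. It was 1 of 8 testis and linker histones tested and the only one past the threshold; the median of the 8 was 0.00. Rps18, a protein of the small ribosomal subunit, had ratios of -0.75, -0.78, -1.16 and -1.29. Its mean was -0.995 ± 0.14 (SE, n = 4), adjusted p = 0.0258. It was 1 of 57 ribosomal protein genes tested and the only one past the threshold, and the median of the 57 was 0.07. Ribosomal protein genes have many near-identical pseudogene copies, so the value for Rps18 is uncertain.

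**Figure D3:**
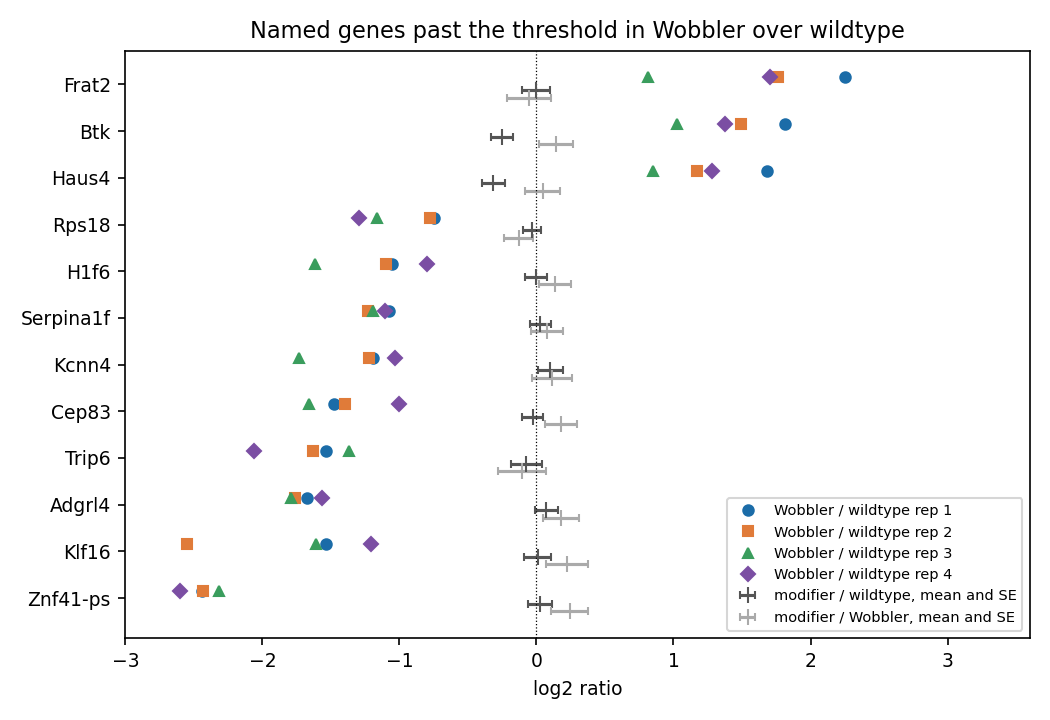
Log2 ratios of the 12 named genes past the threshold, with coloured symbols for the 4 Wobbler over wildtype arrays and bars for the mean and SE (n = 4 arrays) of the comparisons with the modifier. The coloured symbols of each gene lie on 1 side of 0, and the means with the modifier lie between -0.31 and 0.24.

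None of the 12 named genes passed the threshold in either comparison with the modifier. Their log2 ratios of modifier over wildtype lay between -0.31 (Haus4) and 0.10 (Kcnn4), and those of modifier over Wobbler between -0.13 (Rps18) and 0.24 (Znf41-ps). A gene that is low in Wobbler and not in mice with the modifier would be high in modifier over Wobbler. The arrays of the other pairs thus give the same ratio by another route, the ratio of modifier to wildtype minus that of modifier to Wobbler. By that route Znf41-ps was at -0.22, against -2.45 measured directly, and Btk at -0.39, against 1.43. Over the 12 genes the indirect ratio lay between -0.39 and 0.10. The difference of direct and indirect ratio passed the threshold for 4 of 14729 features (0.0272%), all of which were among the 16 calls. Named ones were Znf41-ps, with a difference of -2.23 ± 0.24 (SE) and an adjusted p of 0.0183, and Btk, with 1.82 ± 0.22 (SE) and 0.0264. These 4 calls did not hold when single arrays were left out: limma called 0 without Wobbler over wildtype replicate 1, 3 or 4 and 0 without modifier over Wobbler replicate 1 or 2. It called 1 without modifier over wildtype replicate 3 or modifier over Wobbler replicate 3, and 2 without any of the other 5 arrays. At an unadjusted p under 0.05, 994 features passed with all 12 arrays. For the other 10 genes the adjusted p of this difference was 0.0915 (Haus4) to 0.473 (H1f6). In a model that forces the 3 pairs to agree, limma called 0 features in Wobbler over wildtype, with 823 at an unadjusted p under 0.05.

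The comparison most like this one is modifier over wildtype, which has the same denominator. The difference between their ratios passed the threshold for 51 of 14729 features (0.346%), 27 of them named. All 12 named genes above were among the 27, with adjusted p of 0.00112 to 0.0364. They were picked by the same Wobbler over wildtype ratios that enter this difference. The other 15 were mostly transcripts that were lower with the modifier: 13 passed the threshold as lower in modifier over wildtype, with log2 ratios there of -2.03 to -0.78, against -0.29 to 0.48 in Wobbler over wildtype. The comparisons may share wildtype RNA. The count of 51 fell to 4, 12 and 2 without Wobbler over wildtype replicates 1, 3 and 4. It was 19, 16 and 23 without modifier over wildtype replicates 1, 2 and 3, and 19, 22, 23 and 26 without modifier over Wobbler replicates 1 to 4. Without a dye term it was 14.

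Of these, Cyp17a1, the Leydig cell enzyme that makes androgen precursors, had Wobbler over wildtype ratios of 0.34, -0.01, -0.04 and -0.37, on both sides of 0. Its mean was -0.02 ± 0.22 (SE, n = 4), against -2.03 with the modifier, and the difference had an adjusted p of 0.00914. Spz1, a transcription factor of spermatogenic cells, was at 0.94, 0.71, 0.03 and 0.25, against a mean of -1.33 with the modifier (adjusted p of the difference 0.00619). Dbil5, a testis relative of the acyl-CoA binding protein, was at 0.75, 1.26, -0.38 and -0.21, high in Cy5 and low in Cy3, against -1.35 with the modifier (0.0318). Oaz3, the antizyme of haploid germ cells, had ratios of 0.23, -0.09, -0.48 and -0.49 and a mean of -0.21 ± 0.15 (SE, n = 4). With the modifier its mean was -1.28, and the difference had an adjusted p of 0.0346. Pgk2, the glycolytic kinase of germ cells, was at 0.46, 0.50, 0.11 and -0.13, against -1.02 with the modifier (0.0318). Tnfsf11, the cytokine RANKL, was the 1 of the 15 past the threshold in neither comparison: its ratios were 1.48, 2.01, 0.65 and 0.52, with an adjusted p of 0.205, and -0.40 with the modifier. Oaz3, Pgk2, Tnfsf11, Prm1, Prm2, Tnp1, Acr, Spaca1, Sox9, Star, Vps52, Vps53, Nit1 and the endothelial genes other than Adgrl4 and Cdh5 were chosen for their role or after their values were seen.

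**Figure D4:**
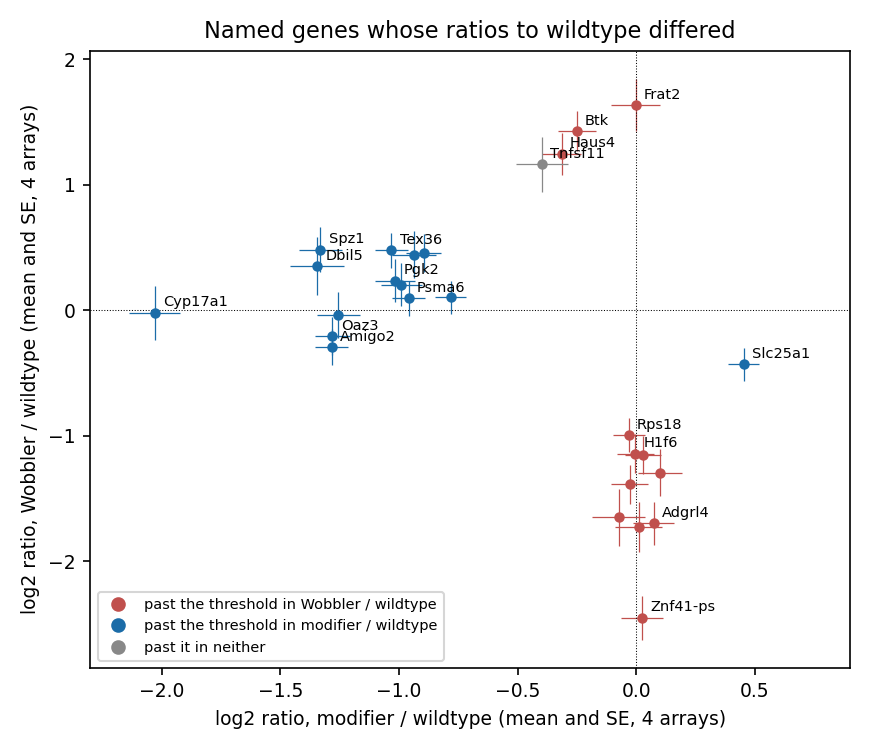
Mean log2 ratios with SE (n = 4 arrays each) of the 27 named genes whose ratios differed between modifier over wildtype (horizontal) and Wobbler over wildtype (vertical). The 12 genes past the threshold in Wobbler over wildtype (red) lie near 0 on the horizontal axis, and 13 of the 14 blue genes lie at -0.78 or below on it and between -0.29 and 0.48 on the vertical one.

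The cells of the germ line were read through 4 marker lists, beside the 0.109% of all features past the threshold. None of their genes passed it. At that share a list of this size, or of the size of the other lists, would most often hold 0. For spermatogonia 0 of 13 tested markers passed, with a median log2 ratio of -0.06. Gfra1, a receptor of stem spermatogonia, was at 0.44, 2.28, 0.02 and 0.19, and Uchl1, a ubiquitin hydrolase of spermatogonia, at 0.12, -0.02, -0.57 and -0.53. Of the 13 markers 5 had a mean above 0. For meiotic spermatocytes 0 of 12 passed, with a median of 0.01. Ddx4, an RNA helicase of germ cells, was above 0 on all arrays at 0.57, 0.59, 0.49 and 0.29, with a mean of 0.49 ± 0.16 (SE, n = 4) and an adjusted p of 0.579. Clgn, a chaperone of the germ cell endoplasmic reticulum, was at 0.32, 0.59, 0.79 and -0.35, with probe means of -0.13, 0.04 and 1.38.

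The acrosome, the structure that fails in Wobbler sperm, showed no gene past the threshold: 0 of 15, with a median of -0.01. At an unadjusted p of 0.05 by limma it was 0 of 15 in either direction. Of all features 3.69% were higher and 4.0% lower at that p, so that 0 of 15 is near these shares. Acr, the protease acrosin, was at 0.06, 1.49, -2.34 and -0.62, the average of probes with means of -1.54 and 0.84. Spaca1, a membrane protein of the acrosome, was at 0.23, 0.04, -0.07 and -0.37, on both sides of 0. Acrv1, an acrosomal matrix protein, was at 0.20, -1.66, -0.37 and -0.48, with probe means of 0.04 and -1.20. Dkkl1, a secreted acrosomal protein, reached 4.68 on replicate 2 and lay at 0.49, -0.72 and 0.13 on the others. The 11 tested genes whose loss is known to give round-headed sperm had a median of -0.02 and 0 past the threshold. Sec23ip, which binds COPII coats, was at 0.46, 1.37, 0.32 and 0.16, with an adjusted p of 0.624 and probe means of 0.07 and 1.09. Agfg1, needed to join the vesicles of the forming acrosome, was at 0.90, 1.96, 0.11 and -0.09, with probe means of 1.15 and 0.29.

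Of 38 late spermatid genes 0 passed the threshold in Wobbler over wildtype, and their median was -0.09; in modifier over wildtype the median of the same genes was -0.60. Prm1, a protamine, was at 0.04, 0.03, -0.65 and -0.62, with a mean of -0.30 ± 0.21 (SE, n = 4) and an adjusted p of 0.712. Prm2, the other protamine, was at -1.01, -0.94, 0.36 and 0.31, so that its sign followed the dye. Tnp1, a transition protein, was at -0.02, 0.45, -0.25 and 0.05. With the modifier Prm1 was at -1.15, Prm2 at -1.60 and Tnp1 at -1.10, but the differences from Wobbler over wildtype did not pass the threshold (adjusted p of 0.195, 0.121 and 0.0503). The late spermatid genes with the smallest p were Smcp, of the mitochondrial capsule of the sperm tail, at -0.05, -0.28, -0.68 and -0.68, and Cst13, a cystatin of the testis, at -0.11, -0.80, -0.36 and -0.35. Both lay below 0 on all arrays, with adjusted p of 0.579 and 0.641. Of 11 genes of the manchette and of transport into the tail 0 passed, with a median of 0.04.

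No gene of the Sertoli and Leydig cell lists passed the threshold, beside 0.109% of all features. Of 17 Sertoli cell markers 0 passed the threshold, with a median of 0.01. Sox9, the transcription factor that defines Sertoli cells, had averaged ratios of 0.06, 0.10, 0.07 and -0.18. Its probes had opposite signs on every array: 1 was at -0.004, -0.46, 0.34 and 0.10, the other at 0.12, 0.66, -0.21 and -0.46. Espn, an actin bundling protein of Sertoli cell junctions, had averaged ratios of -0.35, -0.16, -0.78 and -0.47, with an adjusted p of 0.624. Its probes disagreed: 1 lay below 0 on all arrays, with a mean of -0.77. The other was at 0.08, 0.19, -0.76 and 0.07. Gja1, a gap junction protein, lay above 0 on all arrays, at 0.51, 1.87, 0.21 and 0.20, with an adjusted p of 0.641. Of 12 Leydig cell markers 0 passed, with a median of 0.03 against -0.39 in modifier over wildtype. Star, which carries cholesterol into mitochondria, had averaged ratios of -0.85, -0.34, 0.42 and 0.29, with their sign following the dye. That held for 1 of its probes, at -0.23, -1.59, 0.06 and 0.65. It did not hold for the other, at -1.47, 0.90, 0.79 and -0.06. Nr5a1, a regulator of steroid synthesis, was at 0.04, 1.56, 1.88 and 0.12, with probe means of 0.31 and 0.95. Another Nr5a1 probe had a value on replicate 2 alone, 3.71, which entered the average there. Of 3 red cell and 6 epididymis markers 0 passed, with medians of -0.18 and -0.16.

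The machinery around Vps54 was read through 35 genes of Golgi tethers and SNAREs and 21 of vesicle coats, with medians of 0.06 and 0.10. Of these genes 0 passed the threshold, beside 0.109% of all features. Vps52 and Vps53 are partners of Vps54 in the GARP complex. Vps52 was at -0.33, -0.17, -0.15 and -0.16, below 0 on all arrays, with a mean of -0.20 ± 0.17 (SE, n = 4) and an adjusted p of 0.747. Vps53 was at 0.54, 0.43, -0.22 and 0.16, with probe means of 0.57, 0.33 and -0.21. Stx16, a SNARE with which returning vesicles fuse at the trans-Golgi, was at 1.04, 5.08, -0.43 and 0.05, so that replicate 2 set its mean. M6pr, a receptor that cycles between Golgi and endosomes, was at 1.09, 0.24 and 0.09 on the 3 arrays that measured it. Arf4, a small GTPase of Golgi traffic, was above 0 on all arrays at 0.33, 2.08, 0.19 and 0.14, with an adjusted p of 0.641. Of the 20 tested genes within 5 Mb of Vps54 on its chromosome 0 passed, with a median of 0.09.

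Lysosome, stress and housekeeping genes completed the lists, read beside the 0.109% of all features past the threshold. Of 22 lysosome genes 0 passed, with a median of 0.07. Atp6v1a, a subunit of the proton pump that acidifies lysosomes and the acrosome, was above 0 on all arrays at 0.42, 1.30, 0.22 and 0.10, with an adjusted p of 0.579. Ctsl, the protease cathepsin L, was below 0 on all arrays at -0.01, -1.50, -1.02 and -0.48. Of 19 chaperones and stress genes 0 passed, with a median of -0.05. Hspa1a, the inducible heat shock protein, was at -0.35, -0.09, -2.01 and -2.23, far lower in Cy3 than in Cy5. Of 17 apoptosis genes 0 passed, with a median of -0.05, and Bok, a pro-apoptotic relative of Bcl2, was below 0 on all arrays at -0.51, -0.61, -0.31 and -1.18.

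Sterol synthesis had 0 of 9 past the threshold and a median of -0.25, with Ebp, a sterol isomerase, at -0.74, -1.05, -4.88 and -0.84. Oxidative phosphorylation had 0 of 77 and a median of 0.07, and the proteasome 0 of 29 and a median of 0.13. Over all 24 lists 488 of the 9139 named genes tested were included, and 2 passed, H1f6 and Rps18, beside 0.109% of all features. The other 10 of the 12 named calls lay outside every list, as did most named genes tested. Leaving out replicate 2 turned the sign of 4 list medians: lysosome from 0.07 to -0.07, chaperones from -0.05 to 0.02, round-headed sperm genes from -0.02 to 0.07 and histones from 0.004 to -0.010. It also moved sterol synthesis to -0.07, epididymis to -0.39, apoptosis to -0.12, macrophages to -0.12 and neighbours of Vps54 to 0.02. The array medians of most lists lay above 0 on replicates 1 and 2 and below it on replicates 3 and 4. Those of all features tested did so too, at 0.12, 0.04, -0.23 and -0.10.

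**Figure D5:**
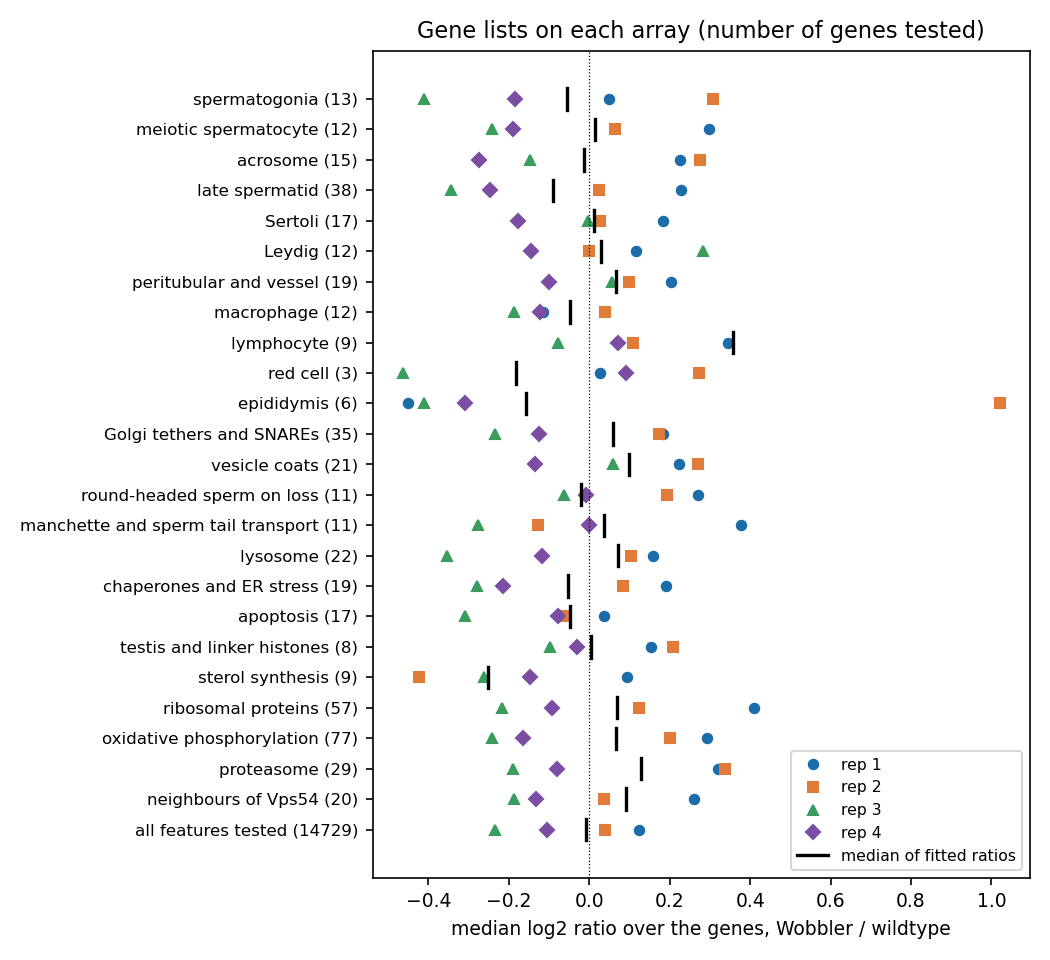
Median log2 ratio of Wobbler over wildtype for the 24 gene lists and for all features tested (bottom row), on each of the 4 arrays (symbols) and as the median of the fitted ratios (black bars). Most list medians lie near those of all features, to the right for replicates 1 and 2 (Wobbler in Cy5) and to the left for replicates 3 and 4 (Wobbler in Cy3); the epididymis list has 1.02 on replicate 2.

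Agreement of sign over the arrays, without any test, was read for the 13289 tested features measured on all 4 arrays. Of these, 801 lay above 0 on every array and 1431 below. Signs that agree by chance are among them, and how many was not tested. The medians of all features tested were 0.12, 0.04, -0.23 and -0.10 on replicates 1 to 4. Only 42 lay above 0.5 and 59 below -0.5 on every array, and 9 above 1 and 12 below -1. By the value nearest to 0 over the arrays, Fam81a led the higher genes with 2.54, 3.81, 2.42 and 2.65. Its mean was 2.85 ± 0.51 (SE, n = 4), but its adjusted p was 0.257. Tmem255a, a membrane protein, followed with 3.39, 1.83, 2.03 and 1.21, a mean of 2.12 ± 0.33 (SE, n = 4) and an adjusted p of 0.0635, which was 0.0435 without replicate 2. Both lay well above 0 on every array and neither passed the threshold.

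The other uncalled genes named by this ranking had values nearer to 0 on their weakest array. Epb41l3, which links membrane proteins to the cytoskeleton, was at 1.02, 2.41, 1.87 and 5.62, with an adjusted p of 0.391. E2f2, a transcription factor of the cell cycle, had averaged ratios of 2.26, 1.36, 1.35 and 0.64, but 1 of its probes had a mean of -0.10 and the other of 2.91. Among genes below 0, Sdccag8, a centrosome protein, was at -5.05, -1.26, -1.36 and -0.90, with an adjusted p of 0.579. Olfm1, a secreted glycoprotein, was at -2.07, -0.98, -1.17 and -0.81, with an adjusted p of 0.791. Zfp612, Mrpl23 and Spink1 lay above 0 on every array, each with a lowest value of 0.67, and had adjusted p of 0.598, 0.579 and 0.641.

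Replicate 2 weighed on the count of large mean ratios. With all 4 arrays 657 features had a mean above 1 and 219 a mean below -1, so that higher ones were the more common. Without replicate 2 the counts were 272 and 313, and the order was turned. All 16 calls were also made without replicate 2, where 19 features passed. Nit1, an amidase of the nitrilase family, was among the 19, with ratios of -1.998, 6.04, -2.51 and -2.16.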

How the data were processed

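Spotted cDNA arrays of mouse testis RNA were read from the table of log2 ratios that the authors deposited, 1 value per spot and array. How the arrays were scanned, background-corrected and normalized is not given in the sources used here. Groups follow the channel labels; the labelling protocol also names a pool of 6 control animals as reference, which those labels do not show. Arrays with channel 1 in Cy3 were multiplied by -1. On each array 1 repeated value near 16 (22 to 165 spots) was treated as missing.

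The platform annotation gave 1 gene symbol for 14030 of the 20355 probes, several for 5 and none for 6320. Probes of 1 symbol were averaged. Features with values on 3 or more of the 4 arrays in each comparison were tested (14729 of 16255). Usable spots on the Wobbler over wildtype arrays numbered 18325 to 19448; the number of arrays limits the precision.

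limma 3.58.1 in R 4.3.3 (lmFit, eBayes) was fitted over all 12 arrays with 1 mean per comparison, a dye term, and arrays weighted by 1 variance factor per comparison (0.523 for Wobbler over wildtype, 2.15 and 0.891 for the others). SEs come from this fit. Benjamini-Hochberg adjusted p under 0.05 over all features was the threshold. The fit was tested on simulated data. Members and lists were chosen with earlier results of these data known, as was the variance factor. Named genes were up to 12 per direction among calls, up to 10 per direction by the smallest ratio over the arrays, up to 4 per list by p, and up to 6 per direction among differences between comparisons, plus genes added for their role or after their values were seen. There were 16 alternatives and 12 fits that each left out 1 array. Deviations of same-numbered arrays of different pairs correlated at -0.21 to -0.06 after the fit, and at -0.03 to 0.07 with the dye term left in. Removing a dye term common to all pairs can itself lower the first values. Whether same-numbered arrays were paired is thus not known, and the main fit did not pair them. No intensities were used here, so spots were not filtered by signal.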

Additional observations from a re-analysis of the deposited data

Results flagged for a closer look

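Of 160 groups of 4 arrays examined, 20 held 1 array far from the other arrays by Dixon's test at the 95% level, which chance alone gives in about 1 in 20 groups. In 13 of the 20 the array apart was replicate 2. Its log2 ratio was 3.81 for Fam81a, -1.69 for Mylk, 2.24 for Cd74, 4.35 for Cd79b, 2.08 for Arf4, 4.03 for H1f8, 1.98 for Hmgcs1, 4.35 for Psma2, 4.57 for Aftph, 3.54 for Fam161a and 6.04 for Nit1, its median over the epididymis list was 1.02, and its share of ratios above 2 was 13.2%. Replicate 1 stood apart for Sdccag8 (-5.05), Iqcg (0.28), Vps52 (-0.33) and Slc25a1 (-0.33), replicate 3 for Cyp11a1 (-1.78) and Ebp (-4.88), and replicate 4 for Sox9 (-0.18). The Sox9 values averaged probes of opposite sign.

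By limma's test of the difference itself, 27 named genes had unlike ratios to wildtype in Wobbler mice and in mice with the modifier, and 15 of them are given here: the 12 named calls and the 3 others that the rule for named genes reached. The difference, Wobbler over wildtype minus modifier over wildtype, was 1.64 for Frat2, 1.68 for Btk, 1.56 for Haus4, -2.47 for Znf41-ps, -1.73 for Klf16, -1.77 for Adgrl4, -1.57 for Trip6, -1.36 for Cep83, -1.40 for Kcnn4, -1.18 for Serpina1f, -1.14 for H1f6 and -0.96 for Rps18. For these the ratio of modifier over wildtype was near 0. The 12 were picked by the same Wobbler over wildtype ratios that enter the difference. None of them passed the threshold in modifier over Wobbler, where their ratios lay between -0.13 and 0.24. The difference was 2.01 for Cyp17a1, 1.81 for Spz1 and 1.70 for Dbil5, whose ratios of modifier over wildtype were -2.03, -1.33 and -1.35. These 3 also passed as lower in modifier over Wobbler, at -1.39, -1.30 and -1.11.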

How the results depend on the processing

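The 16 calls in Wobbler over wildtype became 45 with one common spread for all 12 arrays (18 higher and 27 lower), 2 with the replicate number as a block (replicate block; Znf41-ps and an unnamed probe), and 0 with the 4 arrays alone, with or without a dye term, with the loop model, or with channel 1 over channel 2 (each by limma; 836, 688, 823 and 836 features had an unadjusted p under 0.05). Whether same-numbered arrays of different pairs share more than a number is not stated, and why the block left fewer calls was not tested. Leaving out 1 array gave 2 to 19 calls. Each of the other alternatives gave 13 to 23. Of 27 alternatives that kept genes as features, Znf41-ps passed in 23 and the other named calls in 12 to 20. With channel 1 over channel 2, which takes the dye for the genotype, 5 genes had the other sign: Znf41-ps 0.011, Trip6 0.0645, Kcnn4 0.0866, H1f6 0.0665 and Rps18 0.2323.

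The 51 differences from modifier over wildtype became 85 with one common spread, 145 with one weight per array, 14 without a dye term, 23 with the replicate block, 83 with centred arrays, 278 with arrays scaled to equal spread, 89 with each probe on its own, 0 with channel 1 over channel 2, and 2 to 57 without 1 array. The 4 differences between direct and indirect ratio became 0 with the replicate block, with scaled arrays or with channel 1 over channel 2, 2 without whole-number ratios, and 0 to 2 without 1 array. The cause was not tested. Centring moved the median of all features by 0.04. Of the list medians under the alternatives, 630 moved by less than the SD between arrays and 18 by more.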

Other observations

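Of the 16 calls, 4 were probes without a gene name. Probe 16995 had log2 ratios of -2.74, -2.47, -2.85 and -2.67 on replicates 1 to 4, the lowest mean of all calls at -2.68. Probe 6384 was at -1.12, -1.61, -2.41 and -1.54, and probe 19595 at -0.96, -0.63, -1.13 and -1.24. Probe 1228 was the only one of the 4 above 0, at 1.93, 1.65, 1.13 and 1.59.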
